A study of Lachancea kluyveri with 9 samples.

Results

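The gene models near the chromosome ends of the budding yeast Lachancea kluyveri are described here. A model was counted as an end model when all of it lay within 30000 bp of the left edge of its chromosome, or within 30000 bp of the end of the rightmost model on that chromosome. The left end of chromosome C was not counted as an end, because models that start within its first 1000000 bp were set aside with that arm. The choice used positions alone and no measured value. It gave 158 of the 5189 models in the table, spread over 15 ends of 8 chromosomes, and left 5031 other models. A right end is the last annotated base, so the true distance to the telomere may be greater.

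Poly(A) RNA had been sequenced from a cells (strain yLB76), alpha cells (strain yLB77) and a/alpha cells (strain FDy22), all wild-type prototrophs, with 3 libraries of each. The a and alpha cells are the haploid mating types, and the study asked which genes both of them express and a/alpha cells do not. Cultures were grown in YPED medium at 30 °C. Each cell type was 1 strain, so strain and cell type cannot be told apart. The files pair no gene names with the models, so the mating-type labels could not be checked against known genes, no function is given to any model, and no sequences are shown.

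Chromosome ends of yeasts carry telomeric repeats followed by subtelomeres, which are rich in repeated gene families and change fast between strains. In Saccharomyces cerevisiae, Sir proteins spread inward from telomeres and silence transcription of genes near them, and the same proteins silence the spare copies of the mating-type genes. Subtelomeric genes there often serve in the use of alternative nutrients or at the cell surface and are poorly transcribed in rich medium.

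Library totals lay between 743244 counts, in a/alpha replicate 1, and 10776548 counts, in a/alpha replicate 2, and every library but a/alpha replicate 1 held at least 6379488. A count of 3 in a library was worth 4.12 CPM (counts scaled to library size with TMM factors) in a/alpha replicate 1, against 0.281 to 0.453 CPM in the other 8 libraries. These limits cover counting error only. By their column headers, the libraries of a cell type are biological replicates.

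End models were shorter and more fragmented than the rest of the annotation. Their median coding length was 1018.5 bp, against 1263 bp for the other models. Several coding parts were annotated in 41 end models, or 25.9%, against 13.3% of the other models. An overlap with a model on the opposite strand was found for 20 end models, or 12.7%, against 2.68% of the others. The identifier began with snap_masked, after the predictor snap, for 34.8% of end models, against 17.6% of the others. Identifiers that begin with maker were counted apart, though some of them also name snap. In 93 end models, or 58.9%, the coding strand ran toward the end, against 50.2% of the other models for the nearer end of their chromosome. The number per end ran from 3 at the left end of chromosome G to 16 at the right ends of chromosomes A and H.

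RNA from end models was low in every library. Divided by coding length, the median end model had 5.43, 5.77 and 4.97 CPM per kb in a cells, 4.64, 4.97 and 4.65 in alpha cells, and 5.41, 4.69 and 4.06 in a/alpha cells. For the other models the same medians lay between 33.7 and 36.3 CPM per kb over the 9 libraries. On the log2 scale, with 0.5 counts added, the median end model minus the median of the other models was -2.70 (a cells), -2.83 (alpha cells) and -2.80 (a/alpha cells), as means of 3 libraries. The 3 cell types overlapped in this difference, which ran from -2.53 to -3.04 over the libraries. In such bulk libraries, fewer cells with a transcript and less of it per cell cannot be told apart.

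Levels were lowest next to the end. Over all libraries, the median model had 0.990 CPM per kb among the 57 models that reach no further than 10 kb from an end, 10.3 among the 46 models at 10 to 20 kb, and 10.9 among the 55 models at 20 to 30 kb. It was 32.6 CPM per kb among 179 models at 30 to 60 kb and 36.5 among 4388 models further in. Within 10 kb the library medians were 0.0972, 0.374 and 0.275 CPM per kb in a cells, 0.798, 0.730 and 0.299 in alpha cells, and 0, 0.900 and 1.23 in a/alpha cells. The 0 came from a/alpha replicate 1, where 1 count exceeds such a level. The cell types overlapped in this band. Across the 158 end models the distance and the level had a Spearman correlation of 0.42, a description over models that share the same libraries. Over the 103 end models with enough reads to test, it was 0.30. Just inside the limit, at 25 to 30 kb, 31 models had a median of 10.9 CPM per kb, and just outside it, at 30 to 35 kb, 27 models had a median of 32.5.

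**Figure D1:**
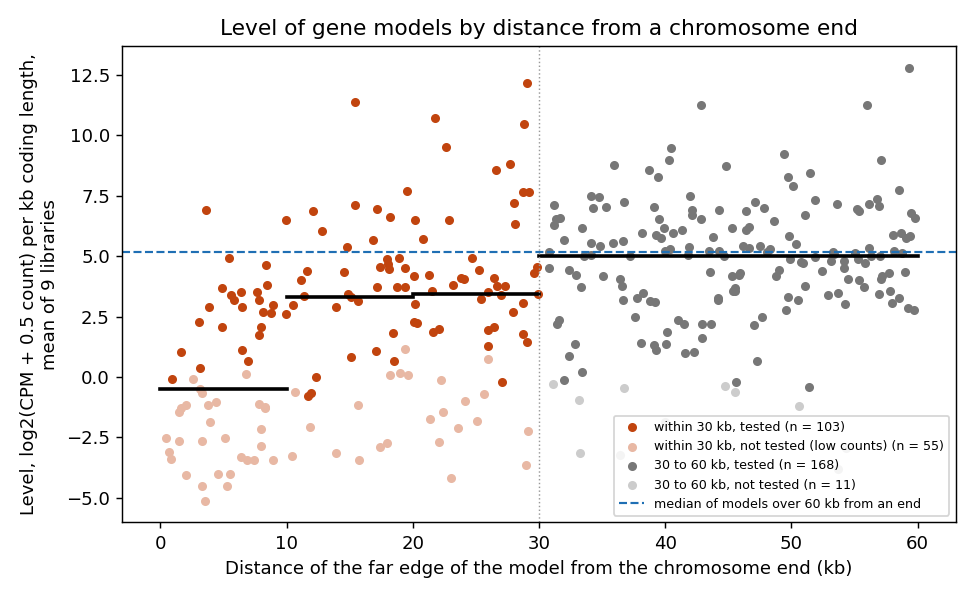
Each point is a gene model, with its distance from the chromosome end in kb on the x axis and its level (log2 of CPM per kb coding length, 0.5 counts added) averaged over the 9 libraries on the y axis. Most models within 10 kb lie far below the median of the other models, and single end models reach well above it.

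**Figure D2:**
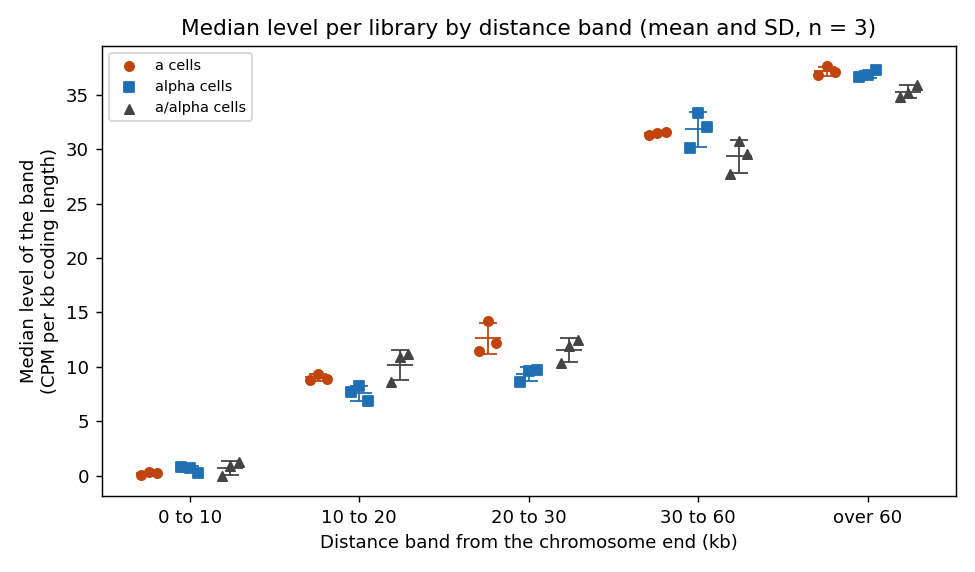
The median level of each distance band, in CPM per kb coding length on a linear axis, with a point per library for a, alpha and a/alpha cells and bars for their mean and SD (n = 3). The medians climb from about 0 to 1.23 CPM per kb within 10 kb to between 27.7 and 33.3 at 30 to 60 kb in all 3 cell types.

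Many end models had almost no reads. In all 9 libraries together, 22 of them had 0 counts, of 27 such models in the whole table, and 16 of the 22 lay within 10 kb. The models closest to each of the 15 ends included 5 with 0 counts in every library, at the right ends of D, E and F and the left ends of F and H. Reads that map to several places are not counted by featureCounts unless an option asks for them, and the command in the file header names no such option. How many such reads fell on end models cannot be read from the counts. Under 1 CPM per kb lay 52 end models, or 32.9%, against 1.71% of the other models.

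A few end models were abundant, and the 5 highest held 73.0% of all counts on end models. The highest was a plus-strand model at the right end of chromosome H from 2283904 to 2284671, 29.0 kb from the end, with 3568 ± 425 CPM per kb (a cells), 5497 ± 581 (alpha cells) and 4987 ± 477 (a/alpha cells), each as mean ± SD with n = 3. Next came a model from 2297559 to 2298061 on the same arm, 15.4 kb from the end, with 2499 ± 751 CPM per kb (a cells), 3661 ± 1015 (alpha cells) and 2142 ± 194 (a/alpha cells). The right end of chromosome C held a model from 1228187 to 1229332 with 1108 ± 51.3 CPM per kb (a cells), 2007 ± 326 (alpha cells) and 2242 ± 640 (a/alpha cells). All but 1 of these 5 lay more than 20 kb from their end. Above 100 CPM per kb lay 17 end models, or 10.8%, against 25.2% of the others. End models together took 1.27, 1.34 and 1.36% of the counts in a cells, 1.33, 1.39 and 1.24% in alpha cells, and 1.41, 1.52 and 1.51% in a/alpha cells. In this share of raw counts, which is not scaled with TMM factors, the a/alpha libraries lay above all others. The 5 abundant models dominate it, so it does not describe end models as a set. The order of the libraries under TMM scaling was not computed.

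Differences between cell types could be tested for 103 of the 158 end models, and the other 55 had too few reads. Among models outside the ends, 92 of 5031 were not tested. Of the untested end models 31 lay within 10 kb, and the median untested end model had 2 counts over all libraries. Of the tested ones, 85 passed the limit of 1.26 CPM in all 9 libraries. The other 18 passed through some libraries only, which lets in models that are low in 1 cell type. Of these 18, 10 were called between a and a/alpha cells, 9 between alpha and a/alpha cells and 3 between a and alpha cells, in the tests below. Of all 149 tested models that passed through some libraries only, 41, 21 and 18 were called in the same comparisons. Of the 85, 19 were called between a and a/alpha cells, 12 between alpha and a/alpha cells and 16 between a and alpha cells, or 22.4, 14.1 and 18.8%. Of all 4893 models that passed in all 9 libraries, 12.5, 10.1 and 18.1% were called in the same comparisons. Passing in every library also leaves out models that are low in 1 cell type.

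Against a/alpha cells, end models changed in both directions. In a cells 12 of the 103 tested end models were higher and 17 lower, by the quasi-likelihood test of edgeR at a Benjamini-Hochberg adjusted p of 0.05. Over all 5042 tested models, 7.32% were higher and 5.61% lower. In alpha cells 9 end models were higher and 12 lower, against 6.55% and 3.71% of all tested models. Either way, 28.2% of the tested end models were called in a cells and 20.4% in alpha cells, against 12.9% and 10.3% of all tested models. With a fold of at least 2, 11 end models were higher and 12 lower in a cells, against 3.83% and 1.31% of all tested models. In alpha cells 7 were higher and 10 lower by that rule, against 2.9% and 1.71%. The count of lower models in a cells was 9 without a/alpha replicate 3. In alpha cells the count of higher models was 5 without a/alpha replicate 2, and that of lower models was 7 without alpha replicate 3, a/alpha replicate 2 or a/alpha replicate 3, and 19 without a replicate 1. Shares of all models moved with the library too. Either way, 13.3, 11.7, 12.6 and 29.0% of end models were called in alpha cells without alpha replicate 3, a/alpha replicate 2, a/alpha replicate 3 and a replicate 1, against 3.87, 3.00, 3.60 and 23.1% of all models. In a cells without a/alpha replicate 3 the shares were 17.5% and 6.94%.

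The median log2 difference over tested end models was 0.09 in a cells and -0.15 in alpha cells against a/alpha cells, beside 0.02 and 0.01 over the other models. The median size of the difference, sign aside, was 0.38 and 0.37, against 0.26 and 0.29. Replicates of a cell type were further apart for end models, with a median SD of log2 level of 0.30 (a), 0.31 (alpha) and 0.27 (a/alpha), against 0.23, 0.23 and 0.21 for the other tested models. Both comparisons use the same a/alpha libraries. In both, 8 end models were higher and 10 lower, against 2.7% and 1.33% of all tested models. Another 11 passed in a cells alone and 3 in alpha cells alone, which does not show that their effects differ.

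Calls in a cells against a/alpha cells were made for 34.6% of tested models within 10 kb, 35.3% at 10 to 20 kb, 18.6% at 20 to 30 kb, 17.3% at 30 to 60 kb and 12.5% further in. For alpha cells against a/alpha cells the shares were 34.6, 17.6, 14, 6.55 and 10.0%. The shares behind the 3 end bands rest on 26, 34 and 43 tested models. At 10 to 20 kb, 5 of the 12 calls in a cells and 4 of the 6 in alpha cells were neighbours in 1 run at the right end of chromosome A. The bands also keep the 18 models that passed the filter through some libraries only. Models of like level were compared as well. Among those at 50 CPM per kb or more, 9 of 25 end models were called in a against a/alpha cells, or 36.0%, against 15.6% of the other models. Among those at 10 to 50 CPM per kb, 10 of 38 end models were called, or 26.3%, against 10.2% of the others.

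**Figure D3:**
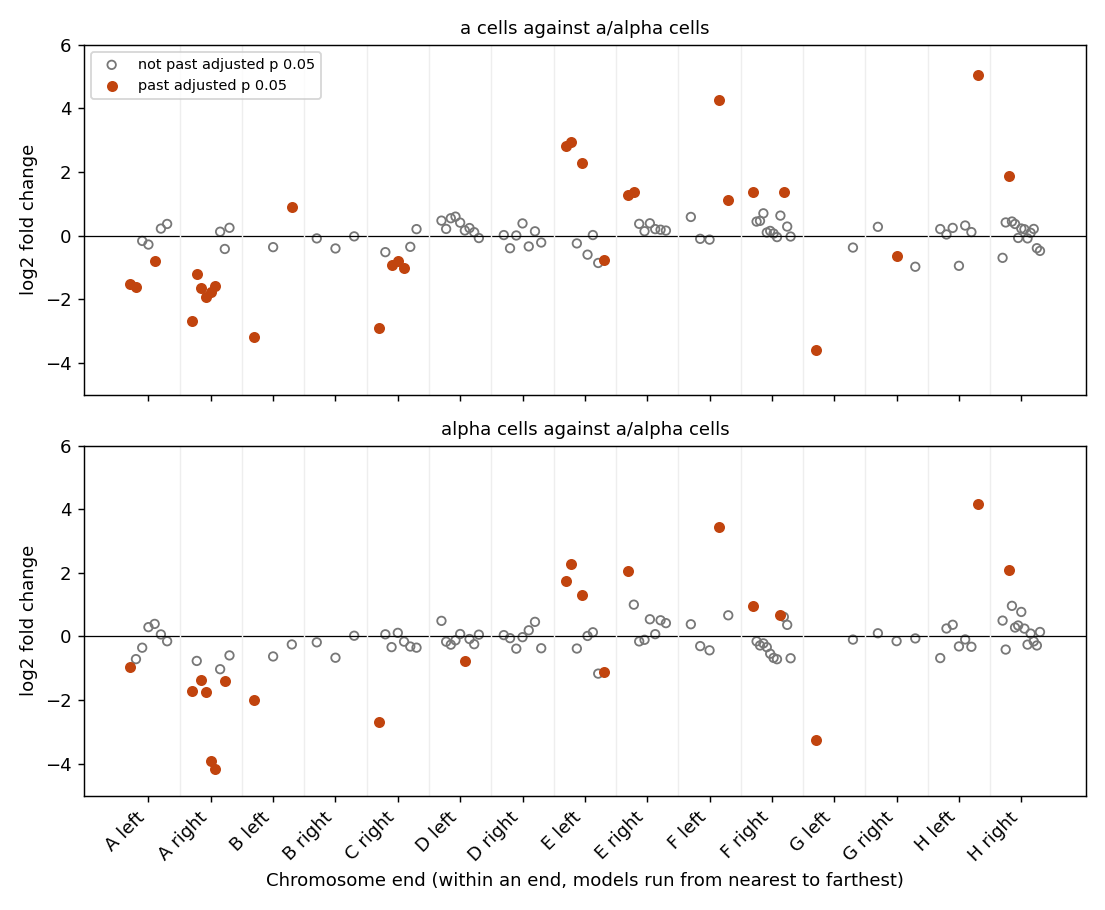
Log2 difference of each tested end model, by chromosome end, for a cells against a/alpha cells and alpha cells against a/alpha cells, with filled points for models past the adjusted p of 0.05. The right end of chromosome A carries calls below 0 only, and the right ends of E, F and H carry calls above 0 only.

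In a against a/alpha cells, 5 ends held higher models only (the left ends of F and H and the right ends of E, F and H), and 5 held lower models only (the left ends of A and G and the right ends of A, C and G). The left ends of B and E held both, and 3 ends held none. In alpha against a/alpha cells, 5 ends held higher models only, 6 lower models only, 1 both and 3 none. Of the ends with calls in 1 direction, 4 of 10 held a single call in a against a/alpha cells and 9 of 11 did in alpha against a/alpha cells, where 1 call leaves no other direction. The right ends of B and D held no call in either comparison.

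A group of 7 end models exceeded a/alpha cells by 2-fold or more in a and in alpha cells alike, which is 6.80% of the tested end models, against 1.59% of all tested models. They make up 8.75% of the 80 models of that kind, while end models are 2.04% of tested models. Of the 7, 4 passed the limit of 1.26 CPM in all 9 libraries, as did 67 of the 80. These are 4.71% of end models and 1.37% of all models that passed in all 9. The rest of the 7 fell under the limit in some a/alpha library, the cell type where they are low. They were tested through haploid libraries, so their part of the share is no support for an excess at the ends. The 7 models sat at the left ends of E (3 models), F and H and the right ends of E and H.

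The largest difference was that of a minus-strand model at the left end of chromosome H from 26993 to 27969 (snap_masked-SAKL0H-processed-gene-0.18), 28.0 kb from the end, with 183 bp of coding length. It had 28, 32 and 32 counts in a cells, 5, 16 and 21 in alpha cells, and 0, 1 and 1 in a/alpha cells. The haploid libraries all lay above those of a/alpha cells. The ratio of summed counts, scaled to depth, was 38.6 in a cells (exact 95% interval 10.4 to 323) and 21.1 in alpha cells (5.48 to 179.5), each against a/alpha cells, where the intervals cover counting error only. The fitted log2 differences were 5.05 ± 0.70 (SE) and 4.17 ± 0.77, with adjusted p of 0.000397 and 0.00493 by edgeR. The alpha call was lost without a/alpha replicate 2 (edgeR adjusted p = 0.0559).

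At the left end of chromosome F, a minus-strand model from 20211 to 22076 (augustus_masked-SAKL0F-processed-gene-0.100) had 17.6, 28.6 and 30.5 CPM in a cells, 11.9, 16.1 and 15.5 in alpha cells, and 0, 1.31 and 1.5 in a/alpha cells. Its 6 haploid libraries lay far above the 3 of a/alpha cells, and every a library lay above every alpha library. The log2 difference was 4.25 ± 0.34 in a cells and 3.43 ± 0.35 in alpha cells (adjusted p 2.42e-06 and 3.53e-05 by edgeR).

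The left end of chromosome E held 3 of these models within 15 kb. The most abundant, on the minus strand from 12237 to 14804, had 187, 156 and 159 CPM in a cells, 83.0, 80.6 and 91.3 in alpha cells, and 37.1, 28.4 and 39.4 in a/alpha cells. The 3 cell types did not overlap, with a above alpha and alpha above a/alpha. Its log2 difference from a/alpha cells was 2.28 ± 0.18 in a cells and 1.30 ± 0.18 in alpha cells (adjusted p 1.83e-06 and 0.000486 by edgeR). The model from 7910 to 8425 had 14.2, 12 and 8.39 CPM in a cells, 8.60, 6.83 and 6.55 in alpha cells, and 1.37, 1.59 and 1.40 in a/alpha cells. Haploid and a/alpha libraries were apart, while a and alpha overlapped. Its log2 differences were 2.93 ± 0.31 and 2.28 ± 0.32. Beside it, the model from 7433 to 7645 had 6.37, 7.67 and 4.4 CPM in a cells, 4.68, 1.99 and 2.14 in alpha cells, and 0, 1.03 and 0.752 in a/alpha cells, with log2 differences of 2.81 ± 0.47 and 1.75 ± 0.51. Its alpha call (edgeR adjusted p = 0.0463) was lost without any single library except a replicate 1 or 3, with edgeR adjusted p between 0.0546 and 0.162.

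On the right ends, the chromosome H model from 2304216 to 2306147 had 14.9, 18.5 and 16.1 CPM in a cells, 16, 23.5 and 18.4 in alpha cells, and 11.0, 3.28 and 4.72 in a/alpha cells. The a/alpha libraries were all lower, with replicate 1, the shallow one, nearest to the haploid range. Its log2 difference was 1.86 ± 0.31 in a cells, beside 2.08 ± 0.31 in alpha cells. The chromosome E model from 1287765 to 1291163 had 10.2, 17.6 and 14.6 CPM in a cells, 25, 23.8 and 23.6 in alpha cells, and 1.37, 6.36 and 6.12 in a/alpha cells. Alpha libraries were highest and a/alpha libraries lowest, without overlap. Its log2 difference was 1.28 ± 0.28 in a cells, beside 2.05 ± 0.27 in alpha cells.

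The opposite pattern was found for 8 end models, which lay 2-fold or more below a/alpha cells in a and in alpha cells alike. They are 7.77% of the tested end models, against 0.536% of all tested models, and 29.6% of the 27 models of that kind. All 8 passed the limit of 1.26 CPM in every a/alpha library, but only 2 of them in every haploid library, against 20 of the 27. The other 6 fell under it in some haploid library. Models that pass through a/alpha libraries alone have to be lower in haploid cells. Not all 6 passed that way, as the chromosome A models from 930346 and from 930830 were over the limit in every a library. The share of the 6 is still taken as no support for an excess at the ends. All 8 lay within 20 kb of an end, and 5 of them at the right end of chromosome A, where 2 overlap on opposite strands. The number was 6 with models that overlap the opposite strand left out. It was 5 without alpha replicate 2 or a/alpha replicate 2, and 4 without alpha replicate 3 or a/alpha replicate 3.

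**Figure D4:**
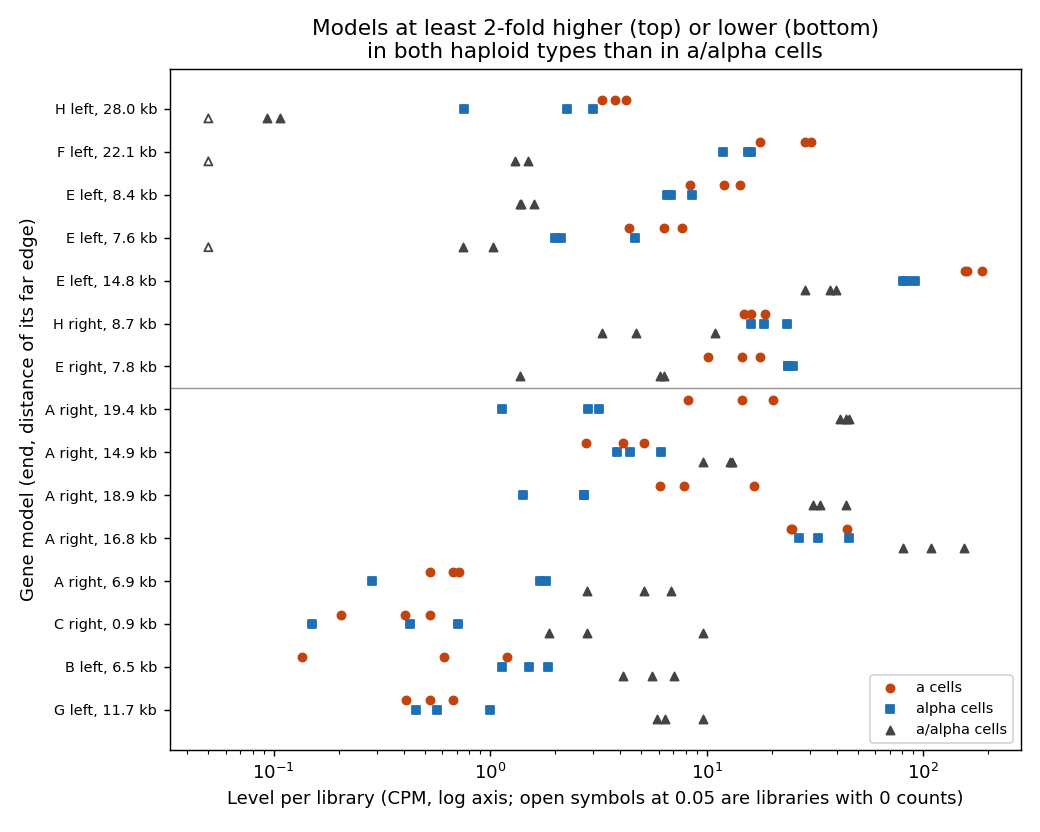
Levels in CPM on a log axis of the 15 end models that differ 2-fold or more from a/alpha cells in the same direction in a and alpha cells, with a point per library for a, alpha and a/alpha cells and open symbols for libraries with 0 counts. In each of the 15 models the 6 haploid libraries lie on one side of the 3 a/alpha libraries.

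The largest of these in a cells was a plus-strand model at the left end of chromosome G from 4170 to 11697 (maker-SAKL0G-snap-gene-0.30), the model closest to that end. It had 0.678, 0.529 and 0.409 CPM in a cells, 0.453, 0.996 and 0.570 in alpha cells, and 9.61, 5.90 and 6.44 in a/alpha cells. All haploid libraries lay under 1 CPM and all a/alpha libraries well above it. The log2 difference was -3.59 ± 0.39 in a cells and -3.24 ± 0.39 in alpha cells (adjusted p 5.11e-05 and 0.000188 by edgeR).

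The left end of chromosome B and the right end of chromosome C each held a similar, low model. The chromosome B model from 5700 to 6476 had 0.136, 1.19 and 0.614 CPM in a cells, 1.51, 1.85 and 1.14 in alpha cells, and 4.12, 5.61 and 7.09 in a/alpha cells. Its log2 differences were -3.20 ± 0.46 in a cells (-3.86 without a replicate 2) and -2.01 ± 0.42 in alpha cells. The chromosome C model from 1248964 to 1249908, the last one on that arm, had 0.407, 0.529 and 0.205 CPM in a cells, 0.151, 0.712 and 0.427 in alpha cells, and 9.61, 1.87 and 2.79 in a/alpha cells. The a/alpha libraries were above all others in both models. Its log2 differences were -2.92 ± 0.66 and -2.68 ± 0.67, and they rest on few counts. The chromosome C calls were lost without a replicate 3 or a/alpha replicate 3 in a cells (edgeR adjusted p = 0.0558 and 0.0505). In alpha cells they were lost without alpha replicate 2, alpha replicate 3 or a/alpha replicate 3 (edgeR adjusted p = 0.0531, 0.0979 and 0.0888). The chromosome B call in alpha cells was lost without alpha replicate 3, a/alpha replicate 2 or a/alpha replicate 3 (edgeR adjusted p = 0.0607, 0.0502 and 0.0741).

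The right end of chromosome A held the most lower models of any end in both comparisons. Of its 16 models 9 were tested, and 6 were lower in each of the comparisons with a/alpha cells. In a cells, 5 neighbouring tested models from 930346 to 938535 were all lower, with log2 differences between -1.92 and -1.22. In alpha cells, 4 neighbours from 930346 to 935423 were lower, with log2 differences between -4.17 and -1.37. Each of these runs includes 2 models that overlap on opposite strands.

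Within this stretch, the minus-strand model from 932882 to 933841 had 44.3, 24.5 and 24.7 CPM in a cells, 45.6, 32.7 and 26.6 in alpha cells, and 81.0, 154 and 109 in a/alpha cells. The haploid types overlapped each other and lay under every a/alpha library. The log2 difference was -1.92 ± 0.29 in a cells and -1.75 ± 0.29 in alpha cells (adjusted p 0.000763 and 0.00224 by edgeR). The plus-strand model from 934819 to 935423 had 5.15, 4.10 and 2.76 CPM in a cells, 6.19, 4.41 and 3.85 in alpha cells, and 9.61, 13.1 and 12.8 in a/alpha cells, again with all haploid libraries lower. Its log2 differences were -1.65 ± 0.28 and -1.37 ± 0.28. The alpha call was lost without alpha replicate 2 or 3 or without a/alpha replicate 2 or 3, with edgeR adjusted p between 0.0508 and 0.0698.

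Further out on this arm, a plus-strand model from 942782 to 944293 had 0.678, 0.529 and 0.716 CPM in a cells, 1.81, 1.71 and 0.285 in alpha cells, and 6.86, 2.81 and 5.15 in a/alpha cells. Its log2 differences were -2.68 ± 0.55 and -1.73 ± 0.51. Its a call was lost without a/alpha replicate 3 (edgeR adjusted p = 0.0570). Its alpha call (edgeR adjusted p = 0.0489) was lost without any single library except a replicate 1 or alpha replicate 1, with edgeR adjusted p between 0.0597 and 0.208.

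A pair of models on this arm overlaps on opposite strands, so that their counts are uncertain. The minus-strand model from 930346 to 931182 (augustus_masked-SAKL0A-processed-gene-8.62) had 20.3, 8.20 and 14.5 CPM in a cells, 3.17, 2.85 and 1.14 in alpha cells, and 45.3, 41.1 and 44.1 in a/alpha cells. The plus-strand model from 930830 to 931132, which lies inside it, had 16.5, 6.09 and 7.88 CPM in a cells, 2.72, 2.70 and 1.42 in alpha cells, and 43.9, 31 and 33.5 in a/alpha cells. In both, the 3 cell types did not overlap, with alpha lowest and a/alpha highest. Between a and alpha cells the log2 differences were 2.59 ± 0.37 and 2.14 ± 0.39 (adjusted p 0.000744 and 0.00293 by edgeR).

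**Figure D5:**
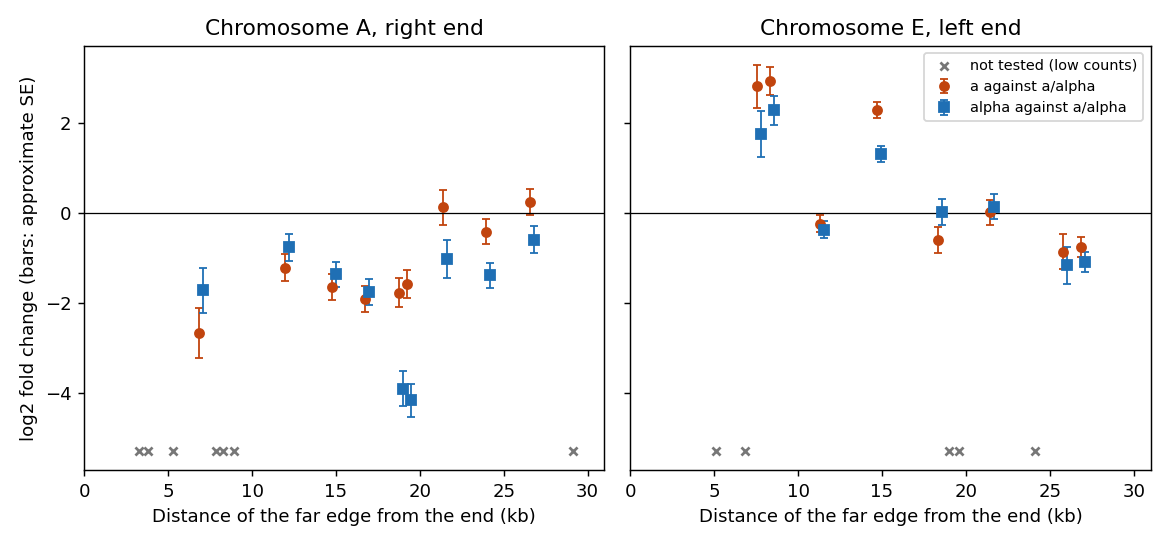
Log2 differences with standard errors of tested models along the right end of chromosome A and the left end of chromosome E, against distance from the end in kb, for a against a/alpha and alpha against a/alpha cells, and crosses for untested models. On chromosome A the models between 12.1 and 19.4 kb all lie below 0 in both comparisons, and on chromosome E the 3 models at 7.6, 8.4 and 14.8 kb lie above 0.

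At the right end of chromosome C, 3 neighbouring models from 1228187 to 1233641 were lower in a cells than in a/alpha cells. The call of the middle one, from 1231780 to 1232625, was lost in 9 of 17 alternatives, 7 of them with 1 library left out. The abundant one, from 1228187 to 1229332, had 1211, 1328 and 1270 CPM in a cells, 2061, 2731 and 2109 in alpha cells, and 1803, 3266 and 2637 in a/alpha cells. The a libraries were the lowest, and alpha and a/alpha libraries overlapped. The log2 difference was -1.02 ± 0.21 in a against a/alpha cells and -0.86 ± 0.21 in a against alpha cells (adjusted p 0.00702 and 0.0146 by edgeR). The call between a and alpha cells was lost without alpha replicate 2 (edgeR adjusted p = 0.0731).

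Near the left end of chromosome A, the minus-strand model from 9041 to 9973 had 49.6, 52.9 and 55.3 CPM in a cells, 73.8, 84.0 and 77.2 in alpha cells, and 134, 173 and 141 in a/alpha cells. The cell types did not overlap. The log2 difference from a/alpha cells was -1.52 ± 0.15 in a cells and -0.94 ± 0.15 in alpha cells (adjusted p 2.37e-05 and 0.00199 by edgeR). At the right end of chromosome F, 3.6 kb from the end, the plus-strand model from 1381235 to 1382254 had 246, 155 and 162 CPM in a cells, 153, 134 and 132 in alpha cells, and 86.5, 70.8 and 64.1 in a/alpha cells. This is a well transcribed model within 10 kb of an end, and its log2 differences were 1.38 ± 0.20 and 0.95 ± 0.20 (adjusted p 0.000667 and 0.0111 by edgeR). The alpha call was lost without a/alpha replicate 2 or 3 (edgeR adjusted p = 0.0687 and 0.0734).

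In a against alpha cells, 10 of the 103 tested end models were higher and 9 lower, or 18.4% either way, against 8.05%, 9.9% and 17.9% of all tested models. The share moved with level. At 50 CPM per kb or more, 36.0% of the 25 end models were called, against 22.5% of the other models, and at 10 to 50 CPM per kb the shares were 18.4% and 14.5%. At 2 to 10 CPM per kb 9.38% of the 32 end models were called, against 17.1% of the others, and below 2 CPM per kb 0 of 8, against 5.41%. With a fold of at least 2, 3 were higher and 2 lower, against 2.68% and 2.94%. Of the 63 models that exceeded both other types by 2-fold or more in a cells, 0 were end models, and likewise 0 of the 26 that did so in alpha cells, against 1.25% and 0.516% of all tested models. By edgeR at an unadjusted p under 0.05 these counts of end models were 1 and 0, and by DESeq2 0 and 0. For a cells the count was 2 under upper-quartile scaling or without a replicate 1 or 3, and 1 with the replicate block or without a replicate 2, alpha replicate 1, alpha replicate 3 or a/alpha replicate 2. The number of a-against-alpha calls depends on the fit. Replicate numbers paired the a and alpha libraries, and with the number as a block 19 end models were higher and 16 lower, or 26 and 19 with the a and alpha libraries alone. These are 34.0% and 45.5% of end models, against 31.2% and 43.6% of all models in the same fits. Under upper-quartile scaling, which put the median difference of all models between a and alpha cells at 0.17 rather than 0.05, 17 end models were higher and 5 lower. Without alpha replicate 2 the counts were 5 and 2, and without alpha replicate 3 they were 4 and 2, or 6.54% and 5.71% of end models, against 9.59% and 8.44% of all models. Without a replicate 1 or a replicate 2, 5 end models were lower.

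Beside the overlapping pair on chromosome A, the higher model in a cells was one at the left end of chromosome B from 15772 to 17406, with 61.7, 73.7 and 62.4 CPM in a cells, 30.5, 34.7 and 23.9 in alpha cells, and 13.7, 45.4 and 35.8 in a/alpha cells. The a libraries lay above all others, and the log2 difference between a and alpha cells was 1.15 ± 0.26 (adjusted p 0.00887 by edgeR). Its call against a/alpha cells (log2 difference 0.90) was lost in 6 of 17 alternatives. Lower in a cells was a model at the left end of chromosome A from 20959 to 22905, with 94.5, 88.7 and 78.0 CPM in a cells, 199.8, 190.3 and 206 in alpha cells, and 192, 135 and 135 in a/alpha cells. Its log2 difference between a and alpha cells was -1.19 ± 0.17 (adjusted p 0.000695 by edgeR). The last model on the right end of chromosome H, from 2311297 to 2312949, had 2.30, 2.12 and 2.05 CPM in a cells, 3.17, 6.4 and 5.27 in alpha cells, and 2.74, 3.09 and 4.08 in a/alpha cells, with a log2 difference of -1.20 ± 0.32 (adjusted p 0.0221 by edgeR). That call was lost without a replicate 2 or 3 or alpha replicate 2 or 3, with edgeR adjusted p between 0.0610 and 0.106.

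In the authors' deposited table for a against a/alpha cells, 13 end models were higher and 20 lower at an adjusted p under 0.05, against 7.01% and 6.39% of the 5163 models with an adjusted p in the authors' deposited table. All 12 and 17 of the calls made here were among those of the authors' deposited table. In the authors' deposited table for alpha against a/alpha cells the counts were 9 and 14, against 6.2% and 4.61% of models in the authors' deposited table, and they include all 9 and 12 calls made here.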

How the data were processed

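The authors deposited raw read counts per gene model. Per the file headers they were made with featureCounts 2.0.1 over coding parts, strand setting 1, from alignments, with fastp and STAR in their paths. Of 14 alignments in the command, 5 were not analysed here. Coordinates are copied from the deposited counts. Their build was not given in the sources used here. Libraries came from a directional kit, per the labels' protocols. Whether strand setting 1 matched the orientation of its reads was not tested, which bears on every count. The authors also deposited comparison tables with a log2 fold change, p-value, adjusted p-value, mean signal and test score per model. Without a stated design, DESeq2 is named in the submitters' processing notes.

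Counts of all 9 libraries were fitted together with edgeR 4.0.16 (R 4.3.3), with TMM factors, filterByExpr and quasi-likelihood tests, Benjamini-Hochberg adjusted over 5042 models. The 147 models left out held 0.0051% of counts. Standard errors are the fold change over the root of F and are approximate. A level is log2 of CPM per kb coding length with 0.5 counts added. Distance runs to the far edge of a model. The fit was tested on simulated data.

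The end models, and the models named in the text, were chosen with earlier results of these data known. Named end models were those at least 2-fold changed whose libraries did not overlap, ranked by fold change, up to 10 a direction and comparison, those of the both-haploid groups, the model closest to each end and the 5 most abundant. The models from 9041 to 9973 on chromosome A and from 1381235 to 1382254 on chromosome F, where given in full, and the runs of neighbours were chosen after their values were seen.

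Deviations from group means were correlated over 5042 models to see whether replicate numbers pair libraries. Numbers 1, 2 and 3 gave 0.75, 0.22 and 0.55 between a and alpha libraries, above the limit of 0.1, so the numbers pair them, although the labels do not say what they share. With a/alpha libraries at least 1 number lay below that limit, down to -0.03. Alternatives were other size factors, filters, DESeq2 1.42.0, 2-group fits, a replicate block, thresholds, each library left out, and other windows. The counts of end models higher or lower in both haploid types under each setting, the block on a and alpha libraries alone, and the counts among models over the limit in all 9 libraries were added after seeing the data.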

Additional observations from a re-analysis of the deposited data

Results flagged for a closer look

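Of the 19 end models called between a and alpha cells, 13 were also called against a/alpha cells in 1 or both haploid types. In these 13 the difference from a/alpha cells was not the same size in a and in alpha cells. For each, the difference between the effects equals the a against alpha difference, and it passed an adjusted p of 0.05 by edgeR's quasi-likelihood test. In 3 of them both haploid types were lower than a/alpha cells. The effect in a minus that in alpha cells was 2.59 on the log2 scale for the chromosome A model from 930346 to 931182 (-1.59 in a and -4.17 in alpha cells) and 2.14 for the model inside it from 930830 to 931132 (-1.78 and -3.92), and their counts are uncertain because they overlap. For the chromosome A model from 9041 to 9973 it was -0.57 (-1.52 and -0.94).

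In 3 models both haploid types were higher. The difference was 0.98 for the chromosome E model from 12237 to 14804 (2.28 in a and 1.30 in alpha cells), -0.77 for the chromosome E model from 1287765 to 1291163 (1.28 and 2.05), and 0.82 for the chromosome F model from 20211 to 22076 (4.25 and 3.43).

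In the other 7, 1 haploid type alone passed the test against a/alpha cells. In a cells these were the chromosome A model from 20959 to 22905, with a difference of -1.19, the chromosome B model from 15772 to 17406 with 1.15, the chromosome C models from 1228187 to 1229332 and from 1231780 to 1232625 with -0.86 and -0.90, and the chromosome F model from 1361722 to 1363839 with 0.75. In alpha cells they were the chromosome A model from 925666 to 927210 with 0.97 and the chromosome D model from 18469 to 20199 with 0.92. The call against a/alpha cells was lost in 6 of 17 alternatives for the chromosome B model from 15772, in 9 for the chromosome C model from 1231780 and in 7 for the chromosome D model from 18469.

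Of the 13 differences between a and alpha cells, 5 were called in all 18 alternatives: those of the chromosome A models from 930346, 930830 and 20959, the chromosome B model from 15772 and the chromosome E model from 12237. The call was lost in 10 of 18 for the chromosome F model from 1361722, in 9 for the chromosome E model from 1287765, in 8 for the chromosome F model from 20211, in 5 for the chromosome A model from 9041, in 4 for the chromosome A model from 925666, in 2 for the chromosome C model from 1231780, and in 1 each for the chromosome C model from 1228187 and the chromosome D model from 18469. Most losses came with 1 library left out. The causes were not tested.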

How the results depend on the processing

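End models were lower than other models in every setting run. The median level difference of -2.70 (a), -2.83 (alpha) and -2.80 (a/alpha) was -4.12, -3.99 and -3.38 within 20 kb, -6.47, -5.53 and -4.39 within 10 kb, and -2.03, -2.20 and -2.10 within 40 kb. In a and alpha cells it was -2.46 and -2.64 with the left end of chromosome C counted, -2.39 and -2.37 without overlapping models, and -3.20 and -3.32 with levels not divided by length. It was -2.93 in alpha cells without the first 1000000 bp of chromosome C, and -2.76 in alpha and -2.52 in a/alpha cells with 2 counts added. Leaving out a library gave -2.76 to -2.66, -2.86 to -2.79 and -2.94 to -2.68. The a/alpha value of -4.39 within 10 kb rests partly on the 0.5 counts added. In a/alpha replicate 1 the median model of that band had 0 CPM per kb, yet a log2 level of 1.61. The level was -0.10 and 0.53 in a/alpha replicates 2 and 3. The sizes within 10 kb therefore cannot be compared between cell types.

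The share of end models called was above that of all models in 26 of 26 settings for both comparisons with a/alpha cells, and in 13 of 27 between a and alpha cells. The settings reuse the same libraries, and several are cuts of the main fit, so the tally is not repeated support. Most also keep the filter that 18 of the 103 tested end models passed through some libraries only. Leaving out a library gave 9 to 13 higher and 9 to 20 lower end models in a against a/alpha cells, 5 to 12 and 7 to 19 in alpha against a/alpha cells, and 4 to 13 and 2 to 11 in a against alpha cells, and 4 to 10 models lower in both haploid types. At an adjusted p of 0.01, 11 were lower in a against a/alpha cells, and 4 higher and 1 lower in a against alpha cells. Either way, 19.4% and 4.85% of end models were called in these comparisons, against 5.75% and 7.42% of all models. In a against alpha cells, upper-quartile factors gave 17 higher and 5 lower, the fit of these groups alone 5 and 5, a fold of at least 2 gave 3 and 2, and the 20 kb window 6 and 5. These are 21.4, 10.1, 4.85 and 18.3% of tested end models, against 19.8, 12.6, 5.61 and 17.9% of all models. Within 10 kb the counts were 5 and 4 in a against a/alpha, 5 and 4 in alpha against a/alpha, and 1 and 3 in a against alpha cells. These are 34.6, 34.6 and 15.4% of tested models in that band, against 12.9, 10.3 and 17.9% of all models. In both haploid types 4 models of the band were higher and 3 lower, of 80 and 27 among all models. A limit of 5 CPM in 3 libraries left 5 end models lower in both haploid types, of 23 among all models.

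The replicate block ties libraries of the same number, a/alpha libraries among them. With it the counts were 15 higher and 22 lower in alpha against a/alpha cells and 19 and 16 in a against alpha cells. They were 26 and 19 in a against alpha cells with those libraries alone. The share of all models called also moved (30.8, 31.2 and 43.6%, against 35.9, 34.0 and 45.5% of end models). The numbers did not pair a/alpha libraries with the others, so the block does not suit the comparisons with a/alpha cells. The block moved the median in a against a/alpha cells to -0.000902. Otherwise the block changed no count by over 1.5 times.

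Medians of the log2 differences were small and moved in sign or size. In a against a/alpha cells the median was 0 with no filter, 0.0238 within 20 kb, 0.22 within 10 kb and -0.0219 to 0.13 without a library. In alpha against a/alpha cells it was -0.22 with upper-quartile factors, -0.20 within 20 kb, -0.0613 within 40 kb, -0.10 without overlapping models and -0.21 to -0.0795 without a library. In a against alpha cells it was 0.27 with upper-quartile factors, -0.0140 with no filter, 0.0937 within 40 kb and 0.0931 to 0.16 without a library.

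Of the calls of named models, 18 of 26, 11 of 20 and 5 of 15 were kept in every setting for a against a/alpha, alpha against a/alpha and a against alpha cells. Of their 1633 values under alternatives, 123 lost a call and 34 gained one. Another 8 changed sign, none of them a call. For a against alpha cells, leaving out a library gave -0.61 to 0.31 for the chromosome C model from 1248964 (above 0 without a replicate 3, at 0.11, and without alpha replicate 2), -0.49 to 0.0652 for the chromosome A model from 932882 (above 0 without alpha replicate 1) and -0.55 to 0.0423 for the chromosome G model from 4170 (above 0 without alpha replicate 2). For alpha against a/alpha cells it gave -0.14 to 0.0286 for the chromosome D model from 21611 (above 0 without alpha replicate 1), and, above 0 without a/alpha replicate 2, -0.45 to 0.0473 for the chromosome B model from 15772 and -0.36 to 0.0491 for the chromosome C model from 1228187. For a against a/alpha cells it gave -0.00382 to 0.36 for the chromosome D model from 18469 (below 0 without a/alpha replicate 1). The causes were not tested. Of the 55 untested end models, 48 had 0 counts in a/alpha replicate 1, against 31 to 39 in the other libraries.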

Other observations

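With no filter on low counts, 136 end models could be tested, and those gained held 3 further calls, chosen here after their values were seen. All had few counts. A model at the right end of chromosome B from 1110674 to 1111231 had 0 counts in every a library, 2, 1 and 1 in alpha cells, and 0, 16 and 19 in a/alpha cells. It was called lower in a and in alpha cells than in a/alpha cells (edgeR adjusted p = 0.00250 and 0.0258). The model closest to the left end of chromosome B, from 2966 to 3262, had 0 counts in every a library, 3, 0 and 0 in alpha cells, and 0, 8 and 8 in a/alpha cells, and was called lower in a cells (edgeR adjusted p = 0.0364). On the same arm the model from 22039 to 23595 had 1, 0 and 1 counts in a cells, 6, 7 and 2 in alpha cells, and 1, 2 and 2 in a/alpha cells, and was called lower in a than in alpha cells (edgeR adjusted p = 0.0498).

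The model closest to the right end of chromosome B, from 1113603 to 1115060, was not tested. It had 0, 3 and 1 counts in a cells, 3, 2 and 1 in alpha cells, and 9, 14 and 9 in a/alpha cells. Summed over the 55 untested end models, the level was 5.83, 8.47 and 7.78 CPM in a cells, 9.36, 12.7 and 8.69 in alpha cells, and 23.3, 13.7 and 14.7 in a/alpha cells. The a/alpha libraries were the highest, and the highest of all was the shallow a/alpha replicate 1, with 17 counts. Of those 17, 9 fell on the chromosome B model from 1113603 to 1115060. With sums this small, single models such as that one weigh on the order of the libraries. The order is not shown to be a trait of the 55 models as a set.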
